A study of Homo sapiens with 17 samples.

Results

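The stretch of chromosome 1 described here is a nuclear copy of part of the mitochondrial genome, and the data are the small RNA fragments that aligned to it. Members were the distinct alignments of any length, on either strand, that lay within chr1:564400-570400 of build hg19 in any of 8 deposited tables. There were 38917 of them among 14415896 distinct alignments in all, which is 0.270%; the plus strand had 25808 and the minus strand 13109. A table listed between 6661 and 12729 members. The first member began at 564459 and the last ended at 570310, and the flanks of the same size on each side held 0 to 13 reads per table, so the reads stopped sharply at both ends.

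The cells were K562, a human erythroleukemia line. They carry a short hairpin RNA that is switched on by doxycycline (Dox) and targets Drosha, which cuts primary microRNA transcripts in the nucleus. Cells with the hairpin construct (genotype label Drosha_shRNA_KD) were kept with 1 µg/mL Dox, or in parallel with water, for 3 d, 13 d or 31 d, and small RNA was sequenced after a gel cut for 20 to 40 nt. Each of the 8 tables compares a Dox library with the water library that matches it in day and replicate number. There were 2 pairs for 3 d and 3 each for 13 d and 31 d, which the protocol calls independent biological replicates. The series held 17 libraries, and the untreated one was not analysed here. The hairpin is present in Dox and water cells alike, so the groups differ by the inducer. The labels give no group with Dox and no hairpin, so the hairpin and the inducer cannot be told apart here. The labelled cell type could not be checked against marker genes, because the tables hold positions without gene names, and Drosha itself was not analysed here.

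Neither the tables nor the labels say which library of a pair is the numerator of the deposited ratio. Every ratio below is therefore numerator library over denominator library, on the log2 scale, with no Dox direction attached, and it is assumed that the 8 tables share 1 orientation. Below 0 means fewer scaled reads in the numerator library. Scaled reads are the authors' reads per alignment, divided by its length and multiplied by 1 constant per library. A row is listed only if the denominator library has at least 1 read, so fragments seen in the numerator library alone are missing and sums of the numerator library are too low by an unknown amount.

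Mitochondrial DNA is transcribed from both of its strands into long precursor RNAs. Transfer RNAs interspersed between the messenger and ribosomal RNAs are cut out of these precursors, which frees the RNAs on either side. Over evolutionary time stretches of this DNA were inserted into the nuclear chromosomes, and a young copy is so like its source that a short read fits both places. The tables list 24 chromosomes and no mitochondrial genome, so whether a fragment came from the mitochondrion or from the chromosome 1 copy cannot be told apart. In bulk RNA, fewer cells with a fragment and less of it per cell cannot be told apart either.

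On GRCh38, GENCODE release 29 names 7 pseudogenes of mitochondrial protein genes on the copy, all on the plus strand: MTND1P23, MTND2P28, MTCO1P12, MTCO2P12, MTATP8P1, MTATP6P1 and MTCO3P12, with lengths from 207 nt (MTATP8P1) to 1543 nt (MTCO1P12). They are copies of genes for subunits of respiratory complex I, cytochrome c oxidase and ATP synthase. It also names 1 microRNA gene, MIR6723, on the minus strand at chr1:632325-632413 of GRCh38, opposite to and within the span of MTCO1P12. Its 89 nt hairpin is shown because it is the only annotated microRNA precursor on this stretch and gives the scale against which the fragments can be read; it was read from the GENCODE transcripts, and the RefSeq microRNA table used here has no row for it.
MIR6723: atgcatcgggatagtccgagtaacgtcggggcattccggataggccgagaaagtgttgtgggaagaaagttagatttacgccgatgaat
Positions were not carried from GRCh38 to hg19, so no fragment below is assigned to this hairpin or to a pseudogene, and no hg19 sequence was at hand to print for the fragments.

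Most members were rare. Of the 38917, 22923 (58.9%) occurred in 1 table, 707 occurred in all 8, and 13740 were seen as 1 read in all. The numerator library had no read in 53.2% to 85.6% of the members of a table, and 271 members had a ratio above 0 in every table. Both libraries of the 8 tables together gave 839078 reads on the stretch, with 25248 to 90989 per denominator library and 29057 to 51048 per numerator library. Whole tables listed 16792268 to 52730703 denominator reads and 25956719 to 56159838 numerator reads. The stretch held 0.0996% to 0.314% of the denominator reads and 0.0637% to 0.197% of the numerator reads of a table. Reads carry no molecular identifiers in the tables, so counts include amplification copies.

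Reads piled up at a small number of 5′ ends on both strands. There were 4440 distinct 5′ ends on the plus strand and 3284 on the minus strand, and each is called a site below, with its alignments of all lengths summed. The 6 most-read sites held 33.0% of the plus reads and 38.5% of the minus reads, and the top 20 held 46.6% and 64.6%. The minus strand was the more concentrated: the window 565400 to 566399 held 59.9% of its reads and 567400 to 568399 a further 20.5%. Plus reads were spread more evenly, with 31.0% in 568400 to 569399 as the largest share of a 1000 nt window.

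**Figure D1:**
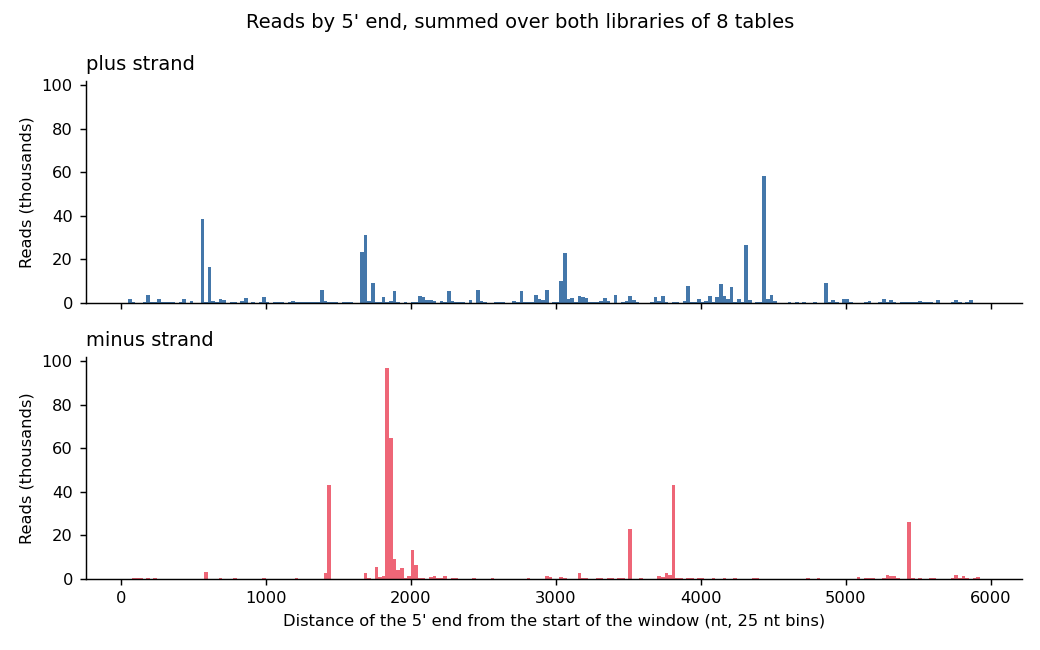
Reads by the distance of their 5′ end from the start of the window (nt, bins of 25 nt), in units of 1000 reads and summed over both libraries of the 8 tables, for the plus strand (top) and the minus strand (bottom). Minus reads stand in a few narrow piles, while plus reads are spread over more of the window.

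The fragments were longer than small RNA elsewhere in the same tables. Fragments of 31 to 42 nt made up 0.607% to 44.2% of the reads on the stretch and 0.0746% to 12.6% of the reads elsewhere. The share was higher on the stretch in 8 of 8 tables, by 18.6 ± 10.1 percentage points (mean ± SD, n = 8; two-sided exact sign-flip permutation test over tables, p = 0.0078125, the smallest these 8 tables can give, adjusted p = 0.015625 over 8 such tests). This length comparison was chosen after values of the stretch were seen, so its p is descriptive. The gap was 24.6 and 18.7 points in the 3 d pairs, 31.6, 22.2 and 16.1 points in the 13 d pairs and 26.4, 8.64 and 0.53 points in those of 31 d. It nearly closed in 31 d pair 3. That table held few long reads anywhere. Reads of 18 to 24 nt, the range of microRNAs, made up 29.2% to 72.6% on the stretch against 59.1% to 80.4% elsewhere. Over all tables the most frequent length was 22 nt on the plus strand (7.80% of its reads) and 20 nt on the minus strand (11.5%), closely followed there by 22 nt (11.3%).

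**Figure D2:**
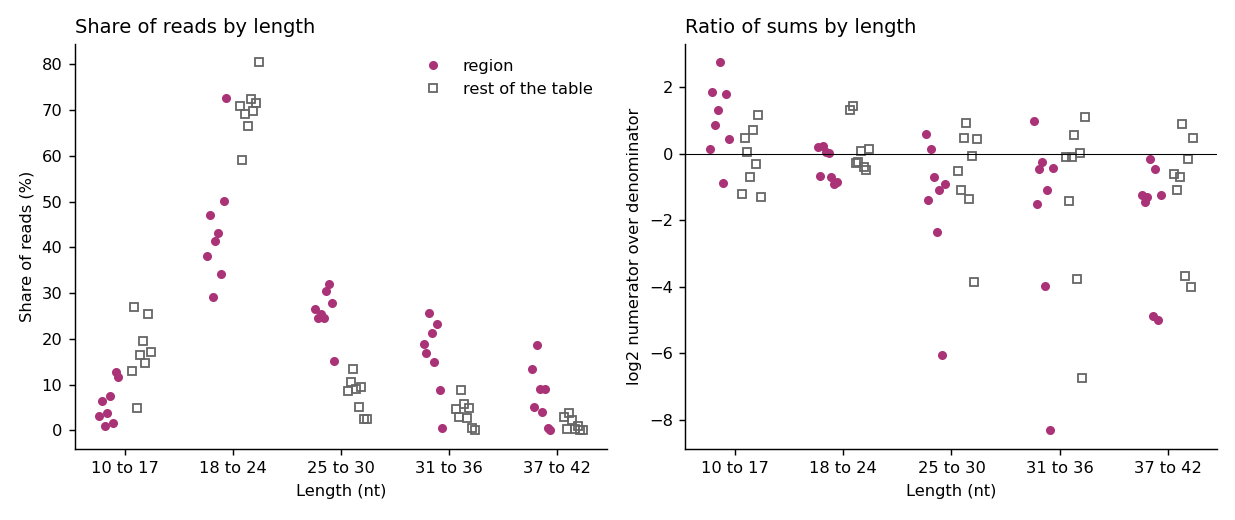
Left, the share of reads (%) in each length class; right, log2 of the numerator over the denominator library, as a ratio of sums, in the same classes. Each point is 1 of 8 tables, filled for the stretch and open for the rest of that table; longer classes hold a larger share on the stretch, and the 2 lowest tables in the classes from 25 nt up are 13 d pair 3 and 31 d pair 2, on the stretch and in the rest alike.

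The ratio differed between length classes without a common trend over the tables; it fell with length most steeply in 13 d pair 3 and 31 d pair 2, while in 3 d pair 1 it was higher at 31 to 36 nt than at 10 to 17 nt. In the class of 31 to 36 nt the log2 ratio of sums on the stretch was 0.99 and -1.51 in the 3 d pairs, -0.46, -0.25 and -3.96 in the 13 d pairs and -1.10, -8.32 and -0.43 in those of 31 d. The same class in the rest of those tables gave -0.08 and -1.42, then -0.09, 0.57 and -3.76, then 0.02, -6.73 and 1.12. The 13 d pair 3 and 31 d pair 2 tables were thus lowest in both. In the shortest class, 10 to 17 nt, the stretch was above 0 in every table but 31 d pair 1, at 0.14 and 1.85, at 0.88, 1.31 and 2.75 and at -0.87, 1.79 and 0.44. That class in the rest of the tables took both signs, at -1.21 and 0.48, at 0.05, -0.71 and 0.71 and at -0.30, 1.16 and -1.30. Whether the 2 libraries of these pairs differed in their cut of fragment lengths was not tested.

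Summed over all members, the ratio lay below 0 in 7 of 8 tables. The values were 0.26 and -0.70 in the 3 d pairs, -0.11, -0.09 and -0.64 in the 13 d pairs and -0.88, -1.09 and -0.66 in those of 31 d. Their mean of -0.49 ± 0.46 (SD, n = 8) missed the threshold of 0.05 after adjustment over the 8 tests (exact sign-flip p = 0.0390625, adjusted p = 0.0520833). Set against the whole table, the stretch was lower by -0.56 ± 0.56 on the log2 scale in the mean and lower in 6 of 8 tables (exact sign-flip p = 0.03125, adjusted p = 0.05), which also did not pass. The means by day were -0.22 ± 0.68 (n = 2), -0.28 ± 0.31 (n = 3) and -0.88 ± 0.22 (n = 3), and the 3 values at 31 d overlapped those of 3 d and lay just below those of 13 d.

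The strands differed. On the minus strand the ratio was below 0 in all 8 tables: -0.09 and -1.06 in the 3 d pairs, -0.52, -0.82 and -0.77 in the 13 d pairs and -0.97, -1.56 and -1.14 in those of 31 d. Its mean was -0.87 ± 0.44 (SD, n = 8; exact sign-flip p = 0.0078125, adjusted p = 0.015625). On the plus strand the values were 0.55 and -0.48, then 0.24, 0.36 and -0.52, then -0.74, -0.73 and -0.15, with a mean of -0.18 ± 0.51 (adjusted p = 0.335938 by the same exact test). The minus strand lay below the plus strand in 8 of 8 tables, by 0.23 to 1.18 with a mean difference of -0.68 ± 0.33 (exact sign-flip p = 0.0078125, adjusted p = 0.015625). The comparison of strands was chosen after values of the stretch were seen, so its p is descriptive. In the rest of the tables the same strand difference took both signs, at 0.41 and -0.19, at 0.01, -0.55 and -0.77 and at -0.03, -0.49 and -0.23. The minus-strand call depends on the scaling: with each table centred on its median the mean was -0.92 and the adjusted p 0.0875 (exact sign-flip test). It also rests on the most-read fragments, since with the median of members with a ratio above 0 in place of the sum the minus strand was at -0.25 and the strand difference at -0.13 (adjusted p = 0.527344 for both). With the sums taken over members that have a ratio above 0 and at least 10 reads in every table of a day, the plus strand turned to a mean of 0.52, while the minus strand stayed below the plus strand. That filter leaves out members without numerator reads by construction, which raises the sums, so no test is read from it.

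The strand difference was not the same in all length classes, though whether it depends on length was not itself tested. These classes were compared after values of the stretch were seen, so the p-values here are descriptive. At 10 to 17 nt the minus strand lay below the plus strand in 8 of 8 tables, with a mean difference of -1.78 ± 0.59 (SD, n = 8; exact sign-flip p = 0.0078125, adjusted p = 0.015625). In this class site 566080 alone held 7401 of the 12567 plus reads of 16 nt and 8706 of the 22391 of 17 nt. With medians of members in place of sums, the difference at 10 to 17 nt missed the threshold. At 18 to 24 nt the minus strand was lower in 5 of 8 tables, with a mean of -0.78 ± 0.83 (exact sign-flip p = 0.0625, adjusted p = 0.0714286), and the 3 exceptions were 13 d pair 3 and 31 d pairs 1 and 2. At 25 to 30 nt the median difference was -0.07, with the minus strand lower in 5 of 8 tables. At 31 to 36 nt the direction turned: the minus strand lay above the plus strand in 6 of 8 tables, with a median difference of 0.56 (from -1.25 in 13 d pair 1 to 1.82 in 3 d pair 3). At 37 to 42 nt it lay above in 4 and below in 4. The differences at 25 nt and over were not tested. With fragments of 18 nt or longer only, the strand difference over all lengths shrank to -0.39 (adjusted p = 0.075, exact sign-flip test).

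**Figure D3:**
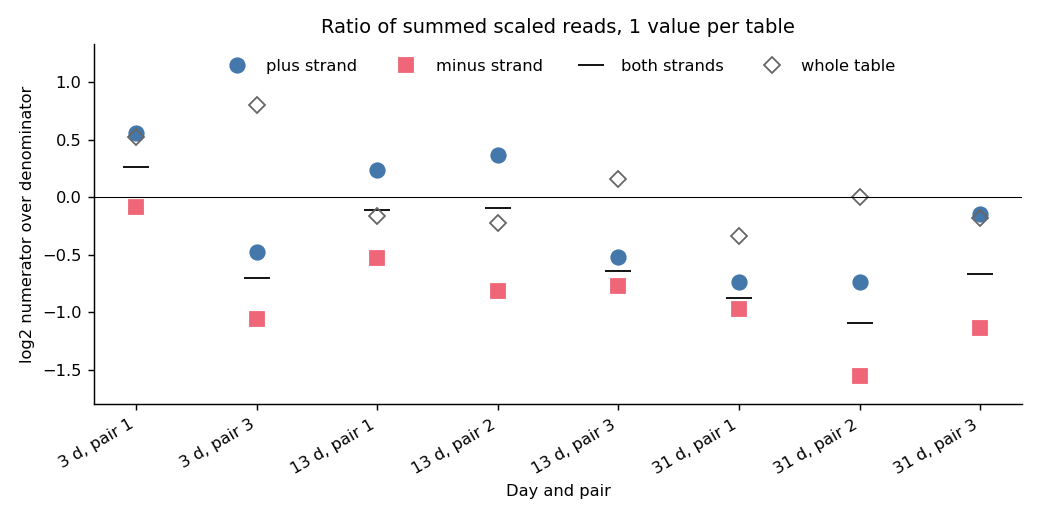
Log2 of summed scaled reads, numerator over denominator library, for each of the 8 tables (day and pair on the x axis): plus strand (circles), minus strand (squares), both strands (dashes) and the whole table (open diamonds). The square lies below the circle in every table and below 0 in every table.

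By position, the plus strand did not behave as 1 unit. In the 1000 nt window from 565400 the plus strand was above 0 in 7 of 8 tables (median 1.18, from -0.27 to 1.60), whereas in the last window, from 569400, it was below 0 in 8 of 8 (median -2.12, from -3.30 to -0.38). The 4 other plus windows had medians of -0.36, -1.61, -1.37 and -0.57. On the minus strand the first 5 windows were below 0 in 8 of 8 tables, with medians from -2.68 to -0.54, and the last in 6 of 8. The window with most minus reads, from 565400, was the one nearest to 0 (from -0.81 to -0.01). The windows are described without a test, and they differ in the lengths of their fragments.

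Single members were tested with limma on the whole tables, each day on its own tables, where the ratio was above 0 and both libraries together had at least 10 reads in every table of the day; calls are at a Benjamini-Hochberg adjusted p under 0.05. The filter kept 433, 496 and 341 of the 38917 members at 3 d, 13 d and 31 d. At 3 d, 1 of 433 was called, against 2.19% of all alignments tested. It was the 18 nt plus fragment that begins at 566080, at 6.41 (limma adjusted p = 0.0230), singled out after its value was seen. It was at 4.49 and 8.33 in the 3 d pairs. All lengths of that site together had 43 and 58 denominator reads there, against 378 and 2496 numerator reads. The fragment can thus meet the minimum of reads through the numerator library, and nothing is read from its call. At 13 d, 72 of 496 (14.5%) were called, 16 above 0 and 56 below, where 26.7% of all alignments were called and 13.0% were called below 0. At 31 d, 30 of 341 (8.80%) were called, 4 above and 26 below, against 4.58% called and 3.65% called below 0 among all alignments. The median log2 ratio of the members tested was 0.13, -0.74 and -1.48 on the 3 days, beside -0.49, -0.10 and 0.20 for all alignments tested. The counts moved by over 1.5 times without 1 pair: at 13 d they were 24, 22 and 10 without pairs 1, 2 and 3, and at 31 d they were 12, 7 and 0. Calls among all alignments moved as well. Without pair 3, 1507 of all 52266 were called above 0 at 13 d and 2327 below, and at 31 d 35 and 77 of 62884.

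The calls split by strand and by length. At 13 d, 37 of the 209 minus members tested were called below 0 and 1 above, where 12.5% of all minus alignments were called below and 13.5% above. Of the 287 plus members, 19 were called below and 15 above, where 13.5% of all plus alignments were called below and 13.9% above. At 31 d the minus strand had 22 calls below and 1 above among 158, against 3.58% and 0.894% of all minus alignments. The plus strand had 4 below and 3 above among 183, against 3.72% and 0.969% of all plus alignments. By length, 5 of the 9 plus members of 10 to 17 nt and 9 of the 127 plus members of 18 to 24 nt were called above 0 at 13 d, against 21.5% and 12.2% of all plus alignments of those lengths. Of the longest class, 37 to 42 nt, 11 of 17 minus members and 4 of 11 plus members were called below 0 at 13 d, against 13.8% and 20.9% of all alignments of that class and strand. These classes hold few members, several of which share a 5′ end, and nothing is read from their shares. The rest of each table has its own trend with length, which the limma fit does not remove.

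Summed to sites, 0 of 422 were called at 3 d, with 4 at an unadjusted p under 0.05, where 0.232% of all sites were called. At 13 d, 41 of 431 (9.51%) were called, 2 above 0 and 39 below, against 29.4% called and 14.9% called below among all sites. At 31 d, 22 of 384 (5.73%) were called, 1 above and 21 below, against 3.88% called and 3.46% called below. The median site was at -0.27, -0.97 and -1.96 on the 3 days, beside -0.95, -0.18 and 0.16 over all sites tested. Without pairs 1, 2 and 3 in turn the count was 14, 12 and 3 at 13 d and 1, 4 and 0 at 31 d. Among all sites, without pair 3, 405 of 38514 were called above 0 at 13 d and 1306 below, and at 31 d 10 and 23 of 53983. With all pairs, the share called at 13 d was below that of all sites, and the count of neither day is read as particular to the stretch. With each table centred on its median, 136 of the 384 sites were called at 31 d, 135 of them below 0, where 10.6% of all sites were called and 8.62% were called below. The minimum of 10 reads counts both libraries together, so a site that is low in 1 library can pass it through the other. With at least 50 reads, 25 of 147 sites were called at 13 d, where 1483 of all 9385 sites were called above 0 and 2134 below. At 31 d, 1 of 114 was called, and that site was above 0, where 52 of all 14619 sites were called above and 755 below. Limma estimated 1 variance for all sites of a given read level, so the standard error of a site does not show the spread of its own pairs.

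Of the 266 sites tested on both later days, 7 were called on both, and each kept its direction. The 6 below 0 stand beside 2.97% of all sites tested on both days, and the 1 above 0 beside 0.452%, so the count below 0 was not above the background. The site above 0 was 566080 on the plus strand. Of the 6 below 0, 568715 was on the plus strand, and the minus strand had 565831, 565832, 565834, 568220 and 568221. They form few clusters, since 565831 to 565834 are 3 neighbouring 5′ ends with long fragments, whose most-read lengths are 34, 35 and 37 nt, and 568220 and 568221 are adjacent. Neighbouring sites share reads of 1 RNA and are not independent.

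The most-read site of the stretch began at 568844 on the plus strand, with 56657 reads (12.8% of that strand) in 28 lengths, of which 20 nt was the most frequent. Its log2 ratio was 0.66 and -0.29 in the 3 d pairs, 0.66, 2.91 and 0.67 in the 13 d pairs and 0.40, 0.60 and 1.11 in those of 31 d. It was above 0 in 7 of 8 tables, with a mean of 0.84 ± 0.93 (exact sign-flip p = 0.015625, adjusted p = 0.0625 over the 12 sites named by reads), and no day passed in limma. Within this site the values differed by length. The 20 nt fragment was above 0 in 8 of 8 tables (median 1.63), and limma called it at 13 d (2.84, adjusted p = 0.0108). The 36 nt fragment was above 0 in 2 of the 7 tables where it had a ratio above 0 (median -1.78).

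The site 566080 on the plus strand stood far from the others. Its fragments were short, mostly 17 nt (44.5%) and 16 nt, with 19552 reads in all. Denominator reads were few, from 19 to 162 per table, and numerator reads were 378 and 2496 in the 3 d pairs, 186, 706 and 3281 in the 13 d pairs and 192, 7957 and 3814 in those of 31 d. The log2 ratios were 2.41 and 5.46, then 3.19, 5.60 and 5.73, then 1.30, 6.16 and 4.27. All 8 were above 0, with a mean of 4.27 ± 1.78 (SD, n = 8). This site was among the most-read ones through its 19010 numerator reads, beside 542 denominator reads, so its mean over the tables is a description with no test. Limma called it at 13 d (4.84 ± 0.89, SE, adjusted p = 8.57e-06) and at 31 d (3.91 ± 0.84, adjusted p = 0.000434) but not at 3 d (3.93 ± 1.85, adjusted p = 0.390), where there were 2 pairs. The call at 31 d was lost without pair 2 (2.79, adjusted p = 0.0651) and without pair 3 (3.73, adjusted p = 0.338). In the authors' deposited table of 31 d pair 2, its 17 nt fragment, chr1:566080-566096, had 43 and 3727 reads and a ratio of 77.2, and in that of 31 d pair 1 it had 41 and 86 reads and a ratio of 2.16.

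As sites, the other plus sites with most reads passed no test of the limma fit, except 568713 at 31 d. Some of their single fragments were called at 13 d. Among these were the main fragments of 566074 (22 nt, 2.25, limma adjusted p = 0.0444) and 564952 (39 nt, -2.32, adjusted p = 0.0453). The 22 nt fragment was at 1.19, 3.70 and 1.85 in the 13 d pairs. The 39 nt fragment was at -1.93, 0.15 and -5.19, so it was above 0 in pair 2. Its value in pair 3 came from 1440 denominator and 44 numerator reads. The median of tested alignments of 37 to 42 nt in the rest of those tables was -0.69, 0.89 and -3.62. Site 566074, whose 22 nt fragment chr1:566074-566095 made up 72.6% of its 22071 reads, was above 0 in 7 of 8 tables, at -0.88 and 0.47, at 1.15, 3.42 and 1.44 and at 0.51, 1.00 and 1.26. Site 564952, with 39 nt as its main length, was below 0 in 5 of 8 tables and ranged from -3.74 to 0.48. Site 565020 (16004 reads, mostly 24 nt) was above 0 in 6 tables, with a mean of 0.74 ± 1.01. Site 568713, mostly 30 nt, was below 0 in 7 of 8 tables, at 1.12 and -2.39, at -0.28, -1.72 and -3.66 and at -0.94, -8.78 and -0.46. Limma placed it at -3.39 ± 0.97 (SE, adjusted p = 0.0177) at 31 d, where the lowest value rests on 3 numerator reads against 1125 denominator reads in pair 2. Without pair 2 it was at -0.70 (limma adjusted p = 0.871), and the call was also lost without pair 1 or pair 3 and with at least 50 reads (adjusted p = 0.265).

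**Figure D4:**
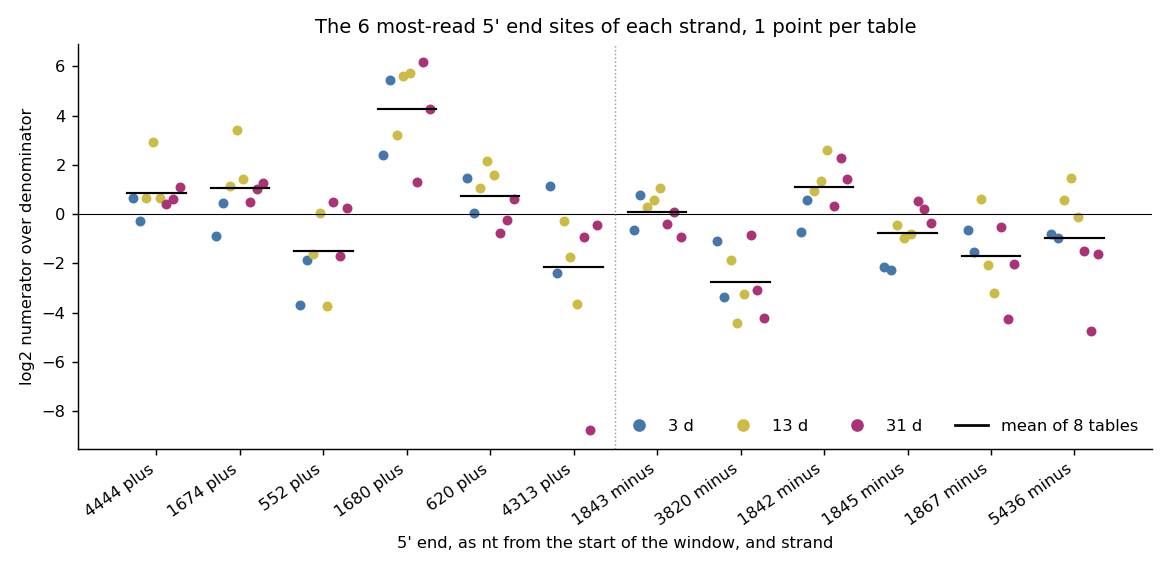
Log2 of the numerator over the denominator library for the 6 most-read 5′ end sites of each strand, named by their distance in nt from the start of the window (x axis, plus strand left of the dotted line); each point is 1 table, coloured by day, and bars are means of 8 tables. The site at 1680 nt (566080, plus) is above 0 in every table and the site at 3820 nt (568220, minus) is below 0 in every table.

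On the minus strand, site 568220 was the counterpart in the other direction. It had 41605 reads (10.5% of the strand), and its main length was 22 nt, at chr1:568199-568220. The denominator library held 1731 and 4187 reads in the 3 d pairs, 4998, 7910 and 3727 in the 13 d pairs and 4931, 2317 and 4961 in those of 31 d. The numerator library held 1270 and 389, then 1263, 288 and 421, then 2610, 282 and 320. The log2 ratios were -1.11 and -3.38, then -1.85, -4.42 and -3.24, then -0.87, -3.08 and -4.23, so that all 8 were below 0, with a mean of -2.77 ± 1.35 (exact sign-flip p = 0.0078125, adjusted p = 0.046875 over the 12 sites). The 12 sites include 566080, which was named through its numerator reads and had the same p. Without that site in the adjustment the adjusted p would be larger, so no conclusion is drawn from its being under 0.05. With 7 tables the exact test cannot go below p = 0.015625, and its adjusted p was over 0.05 without any table other than 3 d pair 1. Limma called it at 13 d (-3.17 ± 0.82, SE, adjusted p = 0.00164) and at 31 d (-2.72 ± 0.79, adjusted p = 0.0195), but not at 3 d (-2.25 ± 1.57, adjusted p = 0.576). The call at 13 d was lost without pair 2 (-2.54, adjusted p = 0.0802), and that at 31 d without any of its pairs (adjusted p from 0.0848 to 0.563). At the same value of -2.72 the 31 d call was also lost with at least 50 reads (limma adjusted p = 0.0983), no minimum of reads (0.0608), no variance trend (0.155) or 1 fit over all tables (0.0533). Its 6 lengths from 20 to 25 nt were each below 0 in 8 of 8 tables, and the 22 nt fragment was at -1.15 and -4.34, at -2.15, -5.01 and -2.89 and at -0.90, -3.62 and -4.77. The median of alignments of 18 to 24 nt in the rest of the same tables lay between -0.75 and 0.95. The authors' deposited table of 13 d pair 2 gave it a ratio of 0.0311, from 3499 and 87 reads.

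The largest pile of the minus strand did not share that pattern. Site 566243, with 44400 reads and a 20 nt fragment that made up 76.6% of them, was near 0, at -0.66 and 0.78, at 0.30, 0.57 and 1.06 and at -0.42, 0.09 and -0.92 (mean 0.10 ± 0.71, exact sign-flip p = 0.695312). Its neighbour 566242, mostly 19 nt, was above 0 in 7 of 8 tables (mean 1.09 ± 1.08, adjusted p = 0.0625 by the exact test). Site 566245, mostly 22 nt, was below 0 in 6 of 8 (mean -0.78 ± 1.01, adjusted p = 0.0833333). Sites 566267 (mostly 28 nt) and 569836 (mostly 26 nt) were below 0 in 7 and 6 of 8 tables, with means of -1.71 ± 1.55 and -0.97 ± 1.86, and their lowest values, -4.28 and -4.77, were both in 31 d pair 2. Limma called none of these 5 sites on any day, but it called some of their single fragments. Below 0 at 31 d were the main fragments of 566267 (28 nt, -3.49, limma adjusted p = 0.0253) and 569836 (26 nt, -3.69, adjusted p = 0.00556). The first was at -0.48, -7.69 and -2.29 in the 31 d pairs and the second at -1.35, -7.43 and -2.27. Their pair 2 values rest on 3 numerator reads against 553 and on 7 against 1077. The median of tested alignments of 25 to 30 nt in the rest of those tables was 0.18, -4.02 and 0.30. Above 0 were short fragments of 566242, of 17 nt at 13 d (3.00, limma adjusted p = 0.0190) and 16 nt at 31 d (3.65, adjusted p = 0.0268). The 16 nt fragment was at 2.36, 5.39 and 3.21 in the 31 d pairs. Such fragments can meet the minimum of reads through the numerator library, so nothing is read from these calls above 0. Without 31 d pair 3, 0 alignments of the stretch were called at 31 d.

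Several of the piles shared a 3′ end and differed in where they began. On the minus strand the main fragments of 566242, 566243 and 566245 all ended at 566224, the most-used 3′ end of that strand, with 68946 reads (17.4%). On the plus strand, 566074 and 566079 ended at 566095, its most-used 3′ end, with 30156 reads (6.82%), and so did the 16 nt fragment of 566080. Along this plus 3′ end the ratio changed with the start of the fragment. The 22 nt fragment, which held 53.2% of those reads, had a median of 1.22, and the fragments of 21, 20, 19, 18 and 17 nt had medians of 0.50, 0.29, 1.00, 1.15 and 2.09. The 16 nt fragment, with 24.5% of the reads, had a median of 5.02, from 1.33 to 6.66. The 16 nt fragment lay above the 22 nt fragment in each of the 8 tables, by 3.07 and 5.02 in the 3 d pairs, by 2.39, 2.95 and 4.29 in the 13 d pairs and by 0.74, 4.75 and 2.92 in those of 31 d. The median of 10 to 17 nt less that of 18 to 24 nt in the rest of the same tables was -2.11 and 0.13, then 0.54, -0.01 and 2.18, then 0.63, 2.76 and -0.15. The difference between the 2 fragments was larger than that of the rest in 8 of 8 tables, though 31 d pair 1 left only 0.74 against 0.63. This pair of fragments was picked after its values were seen and has no test.

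**Figure D5:**
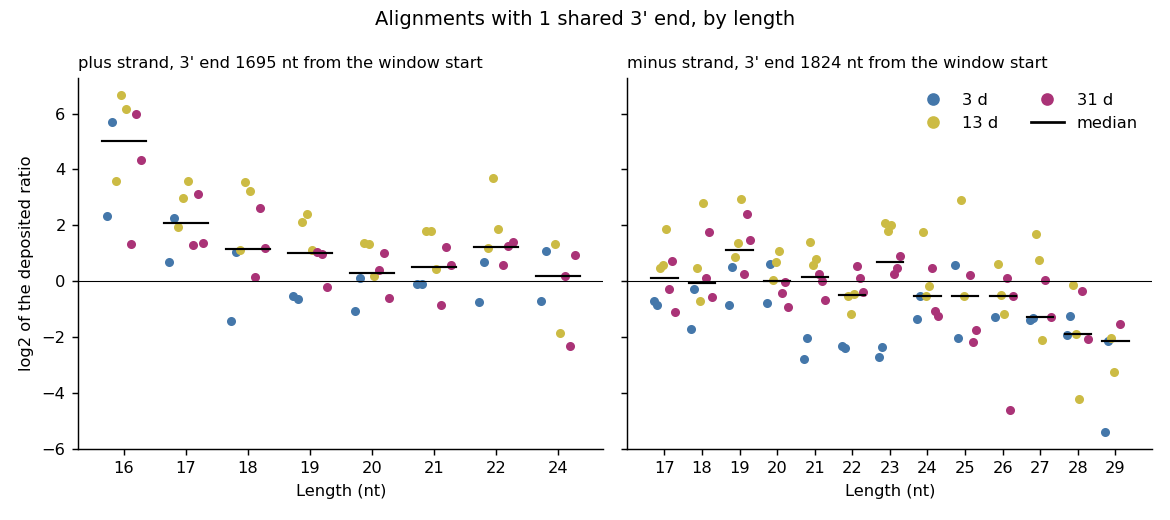
Log2 of the deposited ratio for alignments that share 1 3′ end, by length (x axis, nt), for the most-used 3′ end of the plus strand (left) and of the minus strand (right); each point is 1 table with a ratio above 0, coloured by day, and bars are medians. On the plus strand the 16 nt fragment stands above the others, and on the minus strand the fragments of 28 and 29 nt, shown for the tables where they had a ratio, lie below 0.

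At the minus 3′ end 566224, some lengths had other signs at 3 d than later. The 23 nt fragment was at -2.70 and -2.35 in the 3 d pairs, at 2.07, 1.81 and 2.00 in the 13 d pairs and at 0.25, 0.47 and 0.90 in those of 31 d, so the 3 d tables lay apart from all later ones. The 21 nt fragment showed the same order, at -2.78 and -2.05, at 1.40, 0.57 and 0.81 and at 0.24, 0.02 and -0.68. The 22 nt fragment also had both 3 d values, -2.32 and -2.40, below every later one (from -1.18 to 0.54). The 20 nt fragment, with 49.4% of the reads at this end, did not: its 3 d values were -0.79 and 0.63, within the range of the later tables (-0.91 to 1.09).

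Next to the sites with most reads, the largest called values with 1 direction in every pair of the day were as follows. They are given as a description with no test, since most had few reads and met the minimum of 10 reads mainly through the library in which they were high. At 13 d, 566079 on the plus strand (mostly 17 nt) was above 0, at 2.23, 3.04 and 2.97. Below 0 at 13 d, next to 568220, were 565839 and 568221 on the minus strand and 568709 and 564984 on the plus strand, with limma means from -3.39 to -3.14. At 31 d the lowest were 564469 on the plus strand (-4.21), with 35, 98 and 52 denominator reads and 7, 5 and 1 numerator reads, and 567569, 565832, 568169 and 567565 on the minus strand (from -4.09 to -3.79). All had 129 to 660 reads in the 8 tables, apart from 566079 with 4942 and 565832 with 12144, and several values rest on 1 numerator read. Each of these calls was lost without at least 1 pair of its day.

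Differences between days were tested on members with a ratio above 0 and at least 10 reads in every one of the 8 tables, which left 149 alignments and 223 sites. At the level of alignments, 3 of 149 members differed between 13 d and 3 d (26.7% of all alignments were called), 6 of 149 between 31 d and 3 d (26.0%) and 0 of 149 between 31 d and 13 d (0.0%; limma, with 16 members at an unadjusted p under 0.05). At the level of sites, 1 of 223 differed between 13 d and 3 d (24.5% of all sites), 5 of 223 between 31 d and 3 d (23.1%) and 0 of 223 between 31 d and 13 d (0.0%; limma, 7 at an unadjusted p under 0.05). The median difference of the sites was -0.57, -1.81 and -1.04 for the 3 comparisons, beside -0.78, -1.74 and -0.25 over all sites, so the shift of the sites against 3 d lay near that of all sites. With each table centred on its median, 1 site was higher and 0 lower between 31 d and 3 d (limma, 11 at an unadjusted p under 0.05), where 5 were lower without centring. Among all 13804 sites, 902 were then called higher and 1278 lower. Between 13 d and 3 d, 7 sites were higher and 0 lower with centring, against 1 higher and 0 lower without it. Among all sites, 803 were then called higher and 2307 lower. In the fit without centring, no site was called between 31 d and 3 d without 3 d pair 1, without 3 d pair 3 or without 31 d pair 1, and 2 were without 31 d pair 2. The site called between 13 d and 3 d was lost without 3 d pair 3, 13 d pair 2 or 13 d pair 3, and the 6 alignments became 2 and 1 without 3 d pairs 1 and 3. The strongest was site 565832 on the minus strand, at 2.16 and 0.96 in the 3 d pairs, at -2.21, -0.17 and -5.03 in the 13 d pairs and at -1.62, -8.34 and -2.17 in those of 31 d (31 d minus 3 d: -5.61 ± 1.90, SE, limma adjusted p = 0.0485), of which -8.34 rests on 4 numerator reads against 1189.

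Across the 223 sites with a value in every table, the log2 ratios of 2 tables were related loosely. Pearson's r ran from -0.333 (3 d pair 1 with 31 d pair 1, rho -0.358) to 0.620 (13 d pair 3 with 31 d pair 2, rho 0.536). Tables of the same day had r from 0.167 to 0.467, within the range of tables of different days. Sites are not independent, since they overlap and share lengths, and the highest r joins the 2 tables with the steepest fall with length.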

How the data were processed

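Small RNA libraries of K562 were compared in 8 deposited tables, 1 per Dox and water pair, which hold 5 value columns and no header. Reads were aligned with Bowtie2 2.2.9 to hg19 (GRCh37), per the submitters' processing notes; trimming, filters and the placement of reads with several positions are not stated in those notes or in the labels. The authors' reads per alignment and their scaled values (other units, reads divided by length and times 1 constant per library) stand beside the authors' deposited ratio of column 8 over column 6, which was 0 where the numerator had no read. These read columns name no library and were used as parts of each comparison only. Starts were counted from 1.

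Here, region values are log2 of the ratio of summed scaled reads, tested with a two-sided exact sign-flip permutation test over 8 tables, with Benjamini-Hochberg adjustment over 8 tests and, for the sites with most reads, over 12. Members and sites were tested with limma 3.58.1 in R 4.3.3 (variance trend on log2 reads, robust empirical Bayes, threshold 0.05) on log2 ratios of the whole tables, with at least 10 reads per pair and a ratio above 0 in every table of the day, and adjustment over all tested. Contrasts of days used rows that passed in all 8 tables. Both tests were tested on simulated data. Named are the 6 most-read sites of each strand and, per day, the 5 largest rises and falls among called sites with 1 direction in every pair. The region, the lists and the tests were chosen with earlier results of these data known, and the strand, length and 3′ end comparisons after its own values were seen. Alternatives were centring each table on its median, no minimum or 50 reads, no variance trend, 18 nt or longer, 1 fit over all tables, medians in place of sums, a replicate block and leaving out each pair. Members of 1 site share reads and are not replicates. Values limited by few reads carry counting error that no interval here covers. The reference genome in hand was GRCh38, used for gene names and 1 hairpin sequence only.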

Additional observations from a re-analysis of the deposited data

Results flagged for a closer look

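The sites and fragments below had a log2 ratio that differed between days by limma (adjusted p under 0.05 over all sites or all alignments), or that had opposite signs on 2 days in every pair. Values at later days were mostly the lower ones, but the median of all sites tested also fell, by 1.74 between 31 d and 3 d. With each table centred on its median, 1 site was called higher and 0 lower for 31 d less 3 d (limma). Among all 13804 sites, 902 were called higher and 1278 lower. For 13 d less 3 d, 7 were higher and 0 lower with centring, against 1 higher and 0 lower without it. Among all sites, 803 were called higher and 2307 lower with centring. Between 31 d and 3 d, site 565832 on the minus strand differed by -5.61, site 568168 on the minus strand by -4.80 (1.50 and 0.74 at 3 d against -1.98, -6.75 and -2.31 at 31 d), and the plus sites 566490, 566870 and 566278 by -3.86, -3.57 and -3.48. Site 566278 had 4540 reads and was at 1.87 and 2.18 at 3 d, at -0.24, -0.59 and -1.22 at 13 d and at -1.08, -1.89 and -1.39 at 31 d, with every 3 d value above every later one. Site 566246 on the minus strand, which lies in the pile that ends at 566224, differed the other way between 13 d and 3 d, by 3.65, at -1.45 and -2.15 at 3 d against 2.54, 1.68 and 1.34 at 13 d.

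Among single fragments, the 21 nt plus fragment chr1:566278-566298 differed by -4.92 between 13 d and 3 d and by -5.96 between 31 d and 3 d, from 4.93 and 4.34 at 3 d to -1.57, -1.31 and -1.09 at 31 d. The minus fragments of 21 and 23 nt that end at 566224 differed between 13 d and 3 d by 3.34 and 4.48. Between 31 d and 3 d the other called fragments were 25 nt at 568543 on the plus strand (-4.80), 19 nt at 566245 on the minus strand (-4.67), 26 nt at 568145 on the minus strand (-4.49), 18 nt at 566869 on the plus strand (-4.02) and 23 nt at 568844 on the plus strand (-4.00), where a fragment on either strand is named by its lowest coordinate. The 23 nt fragment at 568844 had 6343 reads and was at 4.09 and 2.97 at 3 d against -0.09, -0.84 and -0.49 at 31 d.

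Opposite signs in every pair were also found at site 565832, where 13 d lay below 3 d by -4.03 (limma adjusted p = 0.167), and at site 567565 on the minus strand, where 31 d lay below 3 d by -5.43; the latter difference was not tested, since the site did not pass the filter in every table.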

How the results depend on the processing

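No sum, share or contrast over the 8 tables changed sign except the plus strand, which was at -0.18 over all members but at 0.52 with at least 10 reads and a ratio above 0, and at 0.72 with at least 50 reads; both minima leave out members without numerator reads by construction. Under the same 2 minima the strand difference at 18 to 24 nt passed, at -1.40 and -1.74, and because of that selection nothing is read from it. With 18 nt or longer the stretch less the whole table passed at -0.81, and the strand difference missed at -0.39. Centring each table on its median left the minus strand at -0.92, which missed. With medians in place of sums the minus strand (-0.25), the strand difference (-0.13) and that at 10 to 17 nt (-0.24) all missed. The causes were not tested.

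Counts of called alignments depended on the settings, and those of all alignments moved as well. At 31 d, 551 of all 59195 alignments were called higher and 2162 lower, against 1552 and 5153 with centring. With at least 50 reads they were 119 and 933 of 16878. At 13 d, 5014 of all 36556 were called higher and 4741 lower, against 1430 and 2141 of 21996 at 18 nt or longer. The counts that follow are those of the stretch, and their changes are not read as particular to it. At 3 d (1 called) they were 12 with centring, 0 with no minimum of reads, 0 with at least 50 reads and 8 at 18 nt or longer. At 13 d (72) they were 45 with 50 reads, 12 at 18 nt or longer and 35 with 1 fit over all tables. At 31 d (30) they were 93 with centring, 0 with 50 reads, 10 without a variance trend, 13 at 18 nt or longer and 17 with 1 fit. For 13 d less 3 d (3) centring gave 17, 16 of them higher, and 18 nt or longer 5; for 31 d less 3 d (6) no minimum gave 11 and 18 nt or longer 11. Called sites at 3 d (0, limma) were 3 with centring and 2 at 18 nt or longer. At 13 d (41) they were 25 with 50 reads, 25 at 18 nt or longer and 21 with 1 fit. At 31 d (22) they were 136 with centring, 9 with no minimum, 1 with 50 reads and 9 with 1 fit. For 13 d less 3 d (1) they were 7 with centring, all higher, 2 with 50 reads and 4 at 18 nt or longer. For 31 d less 3 d (5) they were 1 with centring, which was higher, 3 with no minimum, 2 with 50 reads, 3 without a trend and 13 at 18 nt or longer.

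Leaving out 1 pair at a time gave 0 to 1, 10 to 24 and 0 to 12 called alignments at 3 d, 13 d and 31 d, and 2 to 4, 1 to 7 and 0 to 0 for 13 d less 3 d, 31 d less 3 d and 31 d less 13 d. Called sites were 0 to 0, 3 to 14 and 0 to 4, and 0 to 1, 0 to 4 and 0 to 0. Calls over the whole tables moved too, so these ranges are not read as particular to the stretch. Without 31 d pair 3, 35 of all 62884 alignments were called higher at 31 d and 77 lower. Without 31 d pair 2 they were 460 and 2648 of 74203. The sum of both strands ran from -0.60 to -0.40, and without 3 d pair 1 it passed (exact sign-flip test, adjusted p = 0.025). The other ranges were -0.29 to -0.10 (plus strand), -0.98 to -0.77 (minus strand), -0.66 to -0.43 (stretch less whole table), -0.75 to -0.61 (strand difference), -0.91 to -0.57 (at 18 to 24 nt), -1.92 to -1.71 (at 10 to 17 nt) and 16.7 to 21.2 points (share of long reads). With 1 table left at 3 d, it is assumed to vary like the other days. Of 55 alternatives to the 6 called values of the sites with most reads, 31 kept the call and 24 lost it, in the same direction.

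Same-numbered pairs of different days did not all deviate together (correlation of site deviations from -0.58 to 0.32). Deviations from a mean of so few tables are bound to each other within a day (r = -1 at 3 d). The check therefore cannot decide whether the numbers pair the tables. A replicate block in the limma contrasts left 1 called alignment and 0 called sites for 13 d less 3 d, and 1 and 0 for 31 d less 3 d. With the block, 7 of all 13804 sites were called higher and 2269 lower for 13 d less 3 d, and 5 and 558 for 31 d less 3 d. Depth limits most members, since many ratios rest on a few numerator reads.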
